A study of Mus musculus with 6 samples.

Results

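The mitochondrial genome of the mouse is a small circular DNA that codes for subunits of the respiratory chain and of ATP synthase, for the 2 RNAs of the mitochondrial ribosome and for a set of tRNAs. Both of its strands are transcribed as long precursors that run over many genes, and the tRNAs between the other genes are cut out, which frees the mRNAs and rRNAs. All proteins that transcribe, cut, translate and degrade these RNAs come from nuclear genes. Heart muscle is rich in mitochondria, whereas the cells studied here are stromal.

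The genes described are those whose symbol begins with mt-, 37 of the 53460 genes of the deposited table, and all 37 lie on the mitochondrial chromosome. They are 13 protein-coding genes, 2 rRNA genes and 22 tRNA genes. The libraries were made from cardiac mesenchymal cells, a stromal population cultured out of the heart, of which the slowly adherent fraction was kept. The infarct group (3 libraries) came from hearts of C57BL6/J male mice that had 60 min of ischemia and were then reperfused for 28 days. The sham group (3 libraries) came from males of the same cohort that underwent thoracotomy without infarction. Both groups share the strain, the culture step that selects late-adhering cells, and a total RNA library from which rRNA had been depleted with a Ribo-Zero kit. The groups are set against each other to see what infarction leaves behind in the RNA of such cells. No label ties a library to its own animal or culture, and the spread that the p-values rest on may therefore be technical.

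Depth, as implied by the steps between the lowest values, ran from 22600000 to 26300000 fragments in the infarct libraries and from 25100000 to 31300000 fragments in the sham libraries. The 10 stromal markers summed to 4230 to 5484 FPKM in infarct and 4297 to 5487 FPKM in sham libraries, although Lum, a proteoglycan gene on that list, stayed at or below 0.550 FPKM in all 6. Of 9 stromal markers tested limma called 0, beside 0.0236% of all genes. The groups did not overlap for 2, both lower in infarct, beside 7.82% of all genes. Thy1 was at 225 ± 35.3 FPKM in infarct and 290 ± 16.3 FPKM in sham libraries. Throughout, ± is the SD of 3 libraries, unless marked SE. Dcn, the other gene, was at 16.8 ± 2.64 FPKM in infarct and 26.7 ± 8.01 FPKM in sham libraries. Its highest infarct value, 18.44 FPKM, lay just below its lowest sham value, 18.45 FPKM. The 12 cardiomyocyte markers summed to 15.2 to 21.4 FPKM in infarct and 17.8 to 54.1 FPKM in sham libraries, most of it Tnnt2 (14.3 to 20.4 FPKM in infarct and 16.7 to 53.2 FPKM in sham), with Myh6 and Nppa at 0 in all 6. The 8 macrophage markers summed to 11.2 to 29.1 FPKM in infarct and 7.94 to 28.3 FPKM in sham libraries, most of it Lyz2 (9.73 to 28.0 FPKM in infarct and 6.99 to 26.9 FPKM in sham), with Adgre1 and C1qa at 0 in all 6. The summed level of 12 endothelial markers was 11.5 to 28.7 FPKM in infarct and 98.7 to 410 FPKM in sham libraries. Of 10 endothelial markers tested limma called 1, lower in infarct (adjusted p = 0.0329 by limma), beside 0.0236% of all genes. That call was lost when only protein-coding genes were tested, where limma called 0 genes. For all 10 the groups did not overlap, each lower in infarct, beside 7.82% of all genes. The summed level of 8 cycling markers was 321, 143 and 168 FPKM in infarct libraries 1 to 3 and 148, 280 and 105 FPKM in sham libraries 1 to 3. The labels call all animals male, but Xist, the RNA that silences an X chromosome in female cells, was at 63.1 to 89.9 FPKM in infarct and 102 to 111 FPKM in sham libraries. The Y-linked gene Eif2s3y was at 10.6, 0.804 and 2.27 FPKM in infarct libraries 1 to 3 and did not exceed 0.225 FPKM in the sham libraries. The part of these cell and sex differences in the values below was not tested.

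Several mitochondrial genes have copies in the nuclear genome, and these sequences are shown first because the listed levels divide along them. A search of the annotated mouse transcripts (GENCODE M21, build GRCm38) for stretches of at least 100 bases with at least 90% identity found 7 gene models that lie side by side on the minus strand at chr1:24611535-24616188. They are unprocessed pseudogenes, non-coding remnants of DNA copied into a chromosome. In 4140 aligned bases they differed from the mitochondrial genes at 2 positions. They follow the order of the mitochondrial genome from the 3′ part of mt-Co1 through mt-Co2, mt-Atp6, mt-Co3, mt-Nd3 and mt-Nd4l to the 5′ part of mt-Nd4. The distance between neighbours was the same on both chromosomes in 5 of 6 gaps and differed by 1 base in the other.

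The first 60 bases of mt-Co2, the gene of cytochrome c oxidase subunit II, and of its copy Gm28661 are the same letter for letter. The first 60 bases of mt-Nd3, the gene of an NADH dehydrogenase subunit, differ from its copy Gm28438 at the 1 position in capitals, T3C counted from the first base of mt-Nd3, which is the only difference over 345 aligned bases. By contrast, mt-Cytb, the cytochrome b gene, differs from its annotated copy Gm11410 at 81 of 1142 aligned bases, and 3 of these fall in the 60 bases shown (G14A, C24T and C61T counted from the first base of mt-Cytb). Capitals mark the differing bases, all sequences run 5′ to 3′ along the gene, and the mitochondrial genes are on the plus strand.
mt-Co2 (chrM:7013-7072): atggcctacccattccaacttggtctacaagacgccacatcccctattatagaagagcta
Gm28661 (chr1:24615506-24615565, minus strand): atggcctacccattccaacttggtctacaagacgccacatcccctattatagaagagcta
mt-Nd3 (chrM:9459-9518): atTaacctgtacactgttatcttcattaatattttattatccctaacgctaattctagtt
Gm28438 (chr1:24613060-24613119, minus strand): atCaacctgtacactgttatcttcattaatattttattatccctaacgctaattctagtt
mt-Cytb (chrM:14146-14205): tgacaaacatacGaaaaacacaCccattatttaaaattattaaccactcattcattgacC
Gm11410 (chr4:80003990-80004049, plus strand): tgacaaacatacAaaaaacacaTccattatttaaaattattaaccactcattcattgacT

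The 13 mRNA genes fell into 2 sets. In every library 8 of them stood between 743 and 10201 FPKM (fragments scaled to transcript length and library size) and 5 between 3.86 and 23.5 FPKM. The 8 high genes were mt-Atp8, mt-Co1, mt-Cytb, mt-Nd1, mt-Nd6, mt-Nd5, mt-Nd2 and mt-Nd4, and the 5 low ones mt-Co2, mt-Nd3, mt-Nd4l, mt-Atp6 and mt-Co3. The low genes are the 5 of which nearly the whole coding sequence, 99.0% to 99.9%, aligned to the chromosome 1 block. Of the 150-base windows (the read length) that fit in each of them, 97.0% for mt-Nd3, 98.0% for mt-Nd4l, 99.4% for mt-Co2, 99.4% for mt-Atp6 and 99.8% for mt-Co3 were found letter for letter in a nuclear gene model. For mt-Nd4, the lowest of the high genes, this share was 59.2%, for mt-Co1 it was 23.6% and for the other 6 it was 0%. How reads that match both places were assigned is not given in the sources used here, so the levels of the 5 low genes, and in part those of mt-Co1 and mt-Nd4, are uncertain.

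**Figure D1:**
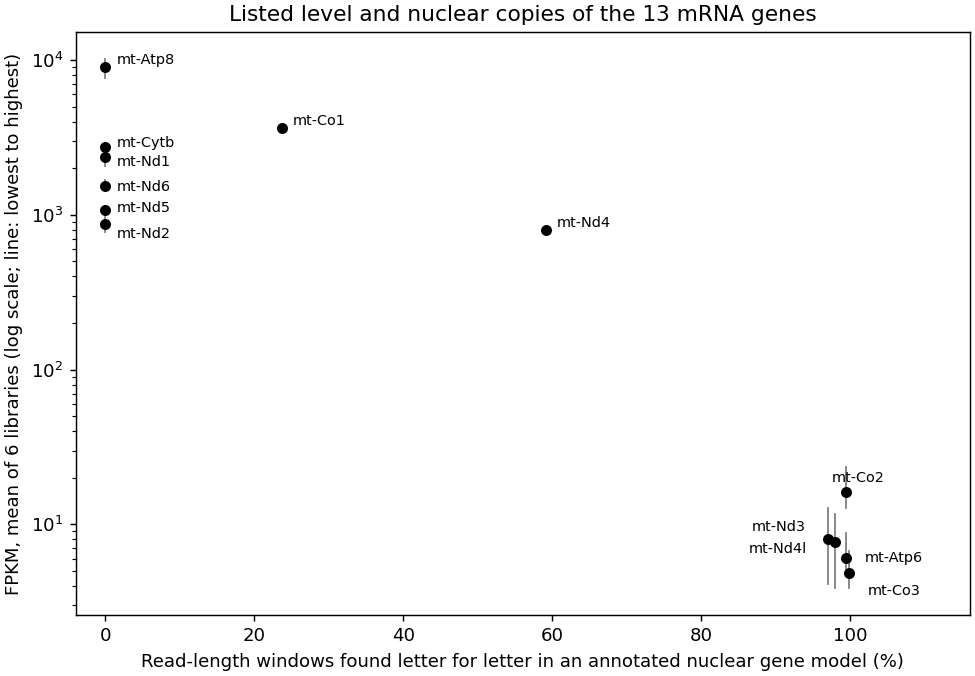
Mean FPKM over the 6 libraries on a log axis (lines run from the lowest to the highest library) against the share of 150-base windows of each mRNA gene found letter for letter in an annotated nuclear gene model. The 5 genes with shares from 97.0% to 99.8% stood below 23.5 FPKM, and the 8 genes with shares from 0% to 59.2% stood above 743 FPKM.

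Cytochrome c oxidase, complex IV, which passes electrons to oxygen, has its 3 core subunits coded here. The gene of its catalytic subunit, mt-Co1 (chrM:5328-6872), stood at 3757, 3583 and 3599 FPKM in infarct libraries 1 to 3 and at 3603, 3554 and 3586 FPKM in sham libraries 1 to 3. These values overlapped, and the highest was 1.06 times the lowest, the narrowest range among the 13 mRNAs. The gene of the second core subunit, mt-Co2 (chrM:7013-7696), was listed at 15.2, 16.6 and 14.1 FPKM in infarct and at 23.5, 14.4 and 12.7 FPKM in sham libraries. The gene of the third, mt-Co3 (chrM:8607-9390), was listed at 5.09, 4.04 and 4.76 FPKM in infarct and at 6.71, 3.86 and 4.63 FPKM in sham libraries. Sham library 1 was the highest of the 6 for mt-Co2 and mt-Co3, and the groups overlapped for both.

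Complex V, the ATP synthase, has 2 subunits of its membrane part coded here, and their genes overlap. mt-Atp8 (chrM:7766-7969) had the highest level of all members, with 10201, 8885 and 9372 FPKM in infarct and 9507, 8425 and 7605 FPKM in sham libraries. mt-Atp6 (chrM:7927-8607), which lies downstream on the same RNA, was listed at 6.41, 5.95 and 4.69 FPKM in infarct and at 8.78, 5.19 and 5.15 FPKM in sham libraries. The value of mt-Atp8 was thus 1494 to 1997 times that of mt-Atp6 in infarct and 1083 to 1622 times in sham libraries, although both are read from 1 overlapping transcript unit. The whole mt-Atp8 sequence is shown because its 204 bases are fewer than the library's inserts of 250 to 300 bases, so that a fragment of that size cannot lie within the gene, and because its last 43 bases, in capitals, belong to mt-Atp6 as well.
mt-Atp8 (chrM:7766-7969): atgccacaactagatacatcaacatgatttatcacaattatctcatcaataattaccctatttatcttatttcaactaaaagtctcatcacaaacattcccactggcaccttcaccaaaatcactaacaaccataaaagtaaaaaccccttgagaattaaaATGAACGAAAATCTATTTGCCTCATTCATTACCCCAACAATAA
The deposited table gives mt-Atp8, mt-Atp6 and mt-Co3 as a single merged locus. On chromosome 1 the place between the copies of mt-Co2 and mt-Atp6 is 233 bases wide, as in the mitochondrial genome, but no gene model is annotated there and its sequence was not analysed here, so the 0% share of mt-Atp8 refers to annotated models. The level of mt-Atp8 is therefore not on the same footing as those of the longer genes.

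Complex I, the NADH dehydrogenase, has 7 subunits coded here, 4 of them in the high set on the plus strand. mt-Nd1 (chrM:2751-3707) stood at 2502, 2324 and 2282 FPKM in infarct and at 2282, 2647 and 2077 FPKM in sham libraries. mt-Nd2 (chrM:3914-4951) stood at 972, 891 and 801 FPKM in infarct and at 855, 949 and 779 FPKM in sham libraries. Infarct library 1 and sham library 2, which also had the highest summed cycling markers of their groups, were the highest of their groups for both genes, and the groups overlapped. mt-Nd4 (chrM:10167-11544) stood at 800, 826 and 763 FPKM in infarct and at 841, 743 and 801 FPKM in sham libraries. For mt-Nd4, as for mt-Co1, sham library 2 was instead the lowest of its group. mt-Nd5 (chrM:11742-13565) stood at 1043, 1134 and 1022 FPKM in infarct and at 1128, 1090 and 1056 FPKM in sham libraries, again with overlapping groups.

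mt-Nd3 and mt-Nd4l, the genes of small membrane subunits of complex I, belong to the low set. mt-Nd3 (chrM:9459-9806) was listed at 12.8, 8.33 and 7.06 FPKM in infarct and at 10.1, 4.09 and 6.19 FPKM in sham libraries. mt-Nd4l (chrM:9877-10173), which shares 7 bases with mt-Nd4 downstream, was listed at 8.90, 11.6 and 7.36 FPKM in infarct and at 3.87, 6.57 and 7.52 FPKM in sham libraries. Both were on average higher in infarct libraries, by 1.38 times for mt-Nd3 and 1.55 times for mt-Nd4l, but a sham library lay within the infarct range for each. The change in log2(FPKM + 1), 0.45 for mt-Nd3, was 0.18 without sham library 2, 0.23 without infarct library 1 and 0.74 without sham library 1, and that of mt-Nd4l, 0.58, was 0.34 without sham library 1.

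mt-Nd6 (chrM:13552-14070) is the 1 mRNA gene of 13 on the minus strand. It stood at 1529, 1427 and 1679 FPKM in infarct and at 1486, 1532 and 1599 FPKM in sham libraries. It was higher than mt-Nd5, its neighbour on the opposite strand, in every library, by 1.26 to 1.64 times in infarct and 1.32 to 1.51 times in sham libraries. The table gives these genes as a merged locus and they share 14 bases. The library is described as directional, but the strand setting used for the counting is not given in the sources used here, so RNA of the plus strand opposite mt-Nd6 cannot be told apart from its mRNA.

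mt-Cytb (chrM:14145-15288), the gene of the cytochrome b of complex III, which passes electrons from ubiquinol to cytochrome c, stood at 2843, 2797 and 2702 FPKM in infarct and at 2894, 2638 and 2551 FPKM in sham libraries. The order of the levels over the 6 libraries was mt-Atp8, mt-Co1, mt-Cytb, mt-Nd1, mt-Nd6, mt-Nd5, mt-Nd2 and mt-Nd4, and then the 5 low genes. The ranges of mt-Cytb and mt-Nd1 overlapped, as did those of mt-Nd2 and mt-Nd4 and those of each pair of neighbours among the low genes. All other neighbours in this order were separated in all 6 libraries. Over the 6 libraries the coefficient of variation (SD over mean) was 1.99% to 10.1% for the 8 high genes and 21.0% to 37.8% for the 5 low ones. For comparison, it had a median of 9.14% over 95 nuclear protein-coding genes with means from 500 to 10000 FPKM.

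**Figure D2:**
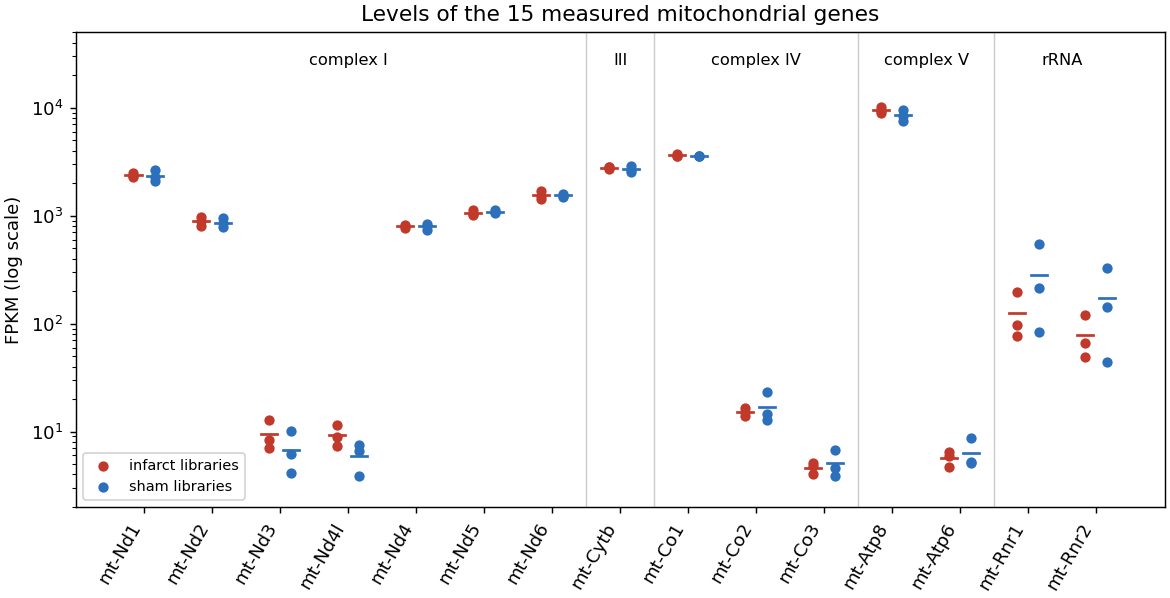
FPKM of the 13 mRNA and 2 rRNA genes in each library on a log axis, grouped by complex, with infarct libraries in red to the left of sham libraries in blue and short lines at the group means. The mRNA genes form a set above 743 FPKM and a set below 23.5 FPKM, and infarct and sham values overlap for each of the 15 genes.

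None of the 15 measured members passed the test between the groups. limma on log2(FPKM + 1), with Benjamini-Hochberg adjustment over all 12716 genes tested, called 0 of the 15 measured members, against 0.0236% of all genes (0.0157% called higher and 0.00786% lower in infarct). At an unadjusted p under 0.05 it found 0 of 15, against 3.59% of all genes, and the lowest adjusted p of a member was 1.00. The groups did not overlap for 0 of 15 members, against 7.82% of all genes tested (3.71% higher in infarct). A change below is the infarct mean minus the sham mean of log2(FPKM + 1). For the 8 high mRNAs they ran from -0.03 for mt-Nd5 to 0.16 for mt-Atp8, and their 95% intervals lay between -0.27 and 0.49, which correspond to 0.831 and 1.41 times the sham level. The change of mt-Co1 was 0.026 with an SE of 0.099 and an interval from -0.21 to 0.26, and that of mt-Cytb was 0.047 with an interval from -0.20 to 0.29. For the low genes the intervals were wider, from -0.30 to 1.20 for mt-Nd3 and from -0.0039 to 1.16 for mt-Nd4l, where the change was 0.58.

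The median change of the 13 mRNAs was 0.026, beside 0.015 for all genes, and 9 of 13 were positive, beside 55.3% of all genes. The count of positive ones was 3 of 13 with quantile normalization and 7 of 13 with median scaling or with rescaling to nuclear protein-coding genes, so no common direction can be read from it. The 13 mRNAs summed to 23695, 21916 and 22259 FPKM in infarct libraries and to 22649, 21612 and 20092 FPKM in sham libraries. The infarct mean was 1.05 times the sham mean, and the groups overlapped. Without mt-Atp8 the sums were 13494, 13031 and 12887 FPKM in infarct and 13142, 13187 and 12486 FPKM in sham libraries, a ratio of 1.02. The 13 genes made up 5.49% ± 0.316 of all protein-coding FPKM in infarct and 5.25% ± 0.324 in sham libraries. In bulk RNA, fewer cells of a type and less RNA per cell cannot be told apart, nor can fewer mitochondria and less RNA per mitochondrion.

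**Figure D3:**
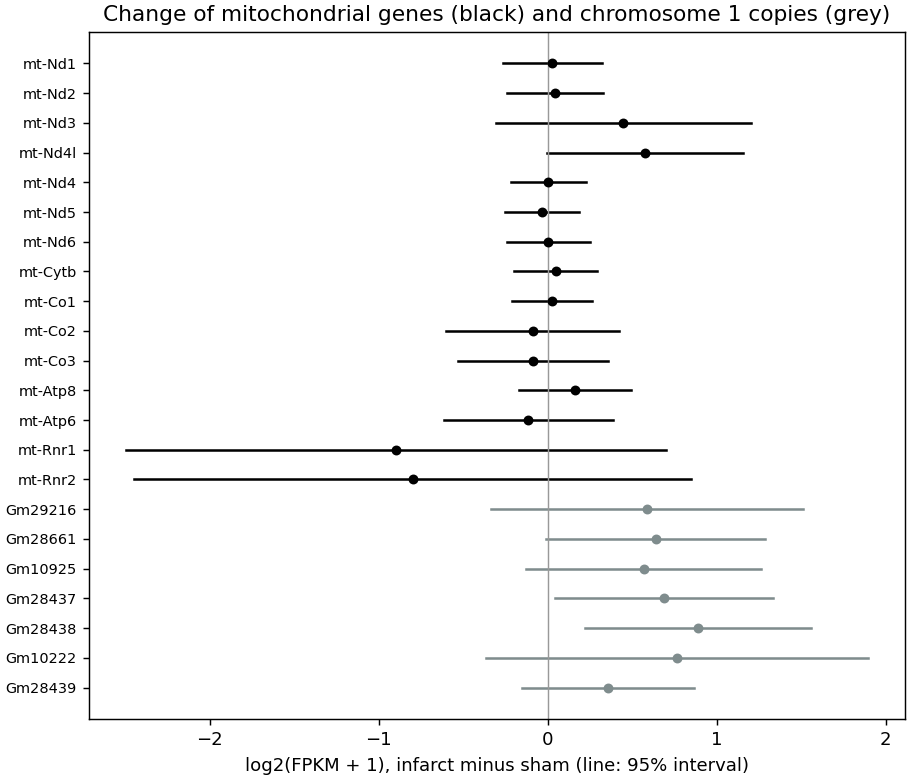
Change in log2(FPKM + 1), infarct minus sham, with 95% intervals from limma, for the 15 measured mitochondrial genes in black and the 7 chromosome 1 copies in grey. The 8 high mRNAs lie between -0.03 and 0.16 with narrow intervals, and the rRNA genes have the widest intervals of the 15.

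The nuclear copies were measured as genes of their own. Gm28661, the copy of mt-Co2, was listed at 15.3, 12.9 and 10.4 FPKM in infarct and at 7.75, 11.8 and 5.15 FPKM in sham libraries, and in 5 of 6 libraries it was lower than mt-Co2 itself. The copies of the other low genes had higher means over the 6 libraries than their mitochondrial genes. These were 12.7 FPKM for Gm10925 beside 6.03 FPKM for mt-Atp6, and 8.61 FPKM for Gm28437 beside 4.85 FPKM for mt-Co3. For Gm28438 the mean was 9.48 FPKM beside 8.09 FPKM for mt-Nd3, and for Gm10222 9.11 FPKM beside 7.64 FPKM for mt-Nd4l. Gm28438, the copy of mt-Nd3, was listed at 14.4, 11.5 and 11.3 FPKM in infarct and at 8.76, 7.35 and 3.55 FPKM in sham libraries, and these groups did not overlap. Gm28439, the copy of the first 876 bases of mt-Nd4, was listed at 6.25, 4.16 and 5.78 FPKM in infarct and at 4.18, 5.11 and 2.80 FPKM in sham libraries, far below mt-Nd4. Each of the 7 copies was thus listed at the level of the 5 low mitochondrial genes, whether its counterpart was in the low or the high set.

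Summed, the 7 copies reached 81.3, 75.0 and 82.4 FPKM in infarct and 56.5, 71.3 and 26.6 FPKM in sham libraries. The 5 low genes summed to 48.4, 46.5 and 37.9 FPKM in infarct and to 52.9, 34.2 and 36.2 FPKM in sham libraries. All 7 copies had a positive change, from 0.36 for Gm28439 to 0.89 for Gm28438, but limma called 0 of 7, beside 0.0236% of all genes, with an adjusted p of 1.00 for each. At an unadjusted p under 0.05 there were 2 of 7, Gm28438 (0.0163) and Gm28437, the copy of mt-Co3 (0.0400), beside 3.59% of all genes. These are also the 2 whose groups did not overlap, beside 7.82% of all genes. Sham library 3 had the lowest value for each of the 7 copies, and without it the median change of the 7 was 0.22, against 0.64 with all libraries. Of the 9 other annotated copies reported here, with identities from 90.7% to 97.6%, none reached 1 FPKM in 3 libraries, and the highest value was 0.862 FPKM, for Gm13340, a copy of mt-Co1 on chromosome 2.

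**Figure D4:**
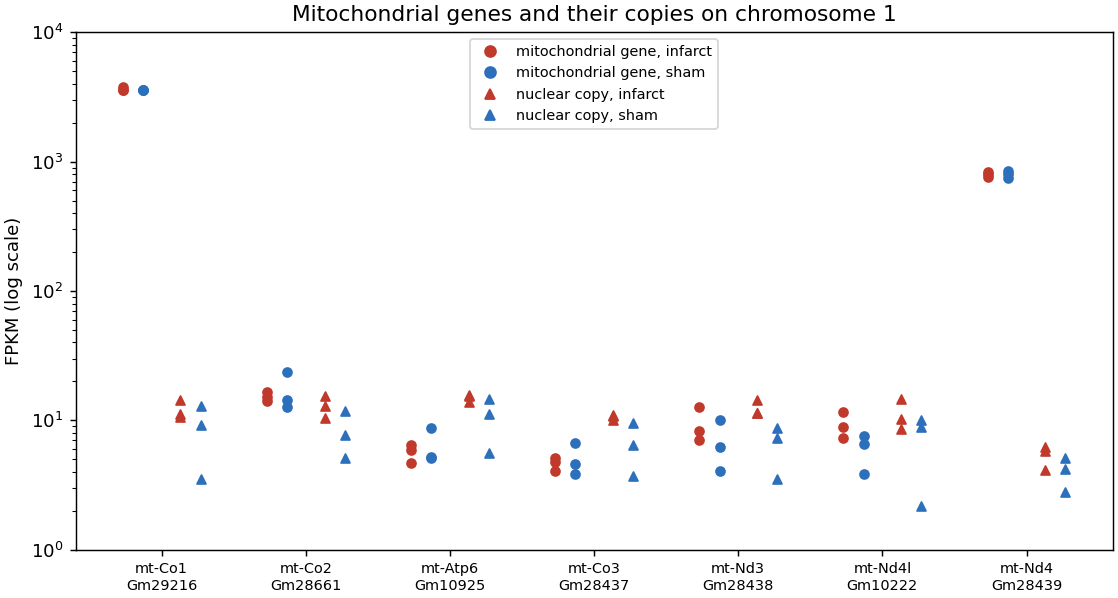
FPKM on a log axis of the 7 mitochondrial genes with a copy in the chromosome 1 block (circles) and of the copies (triangles), with infarct libraries in red to the left of sham libraries in blue. The 7 copies and the 5 low mitochondrial genes lie between 2.17 and 23.5 FPKM, while mt-Co1 and mt-Nd4 lie above 743 FPKM.

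The 2 rRNA genes varied more between libraries than any mRNA of the genome. mt-Rnr1 (chrM:70-1024), the RNA of the small subunit of the mitochondrial ribosome, was at 198, 97.8 and 76.7 FPKM in infarct and at 83.4, 544 and 213 FPKM in sham libraries. mt-Rnr2 (chrM:1094-2675), the RNA of the large subunit, was at 119, 66.5 and 49.4 FPKM in infarct and at 44.3, 326 and 144 FPKM in sham libraries. Sham library 2 was highest and sham library 1 was among the lowest for both, so the groups overlapped. The ratio of mt-Rnr1 to mt-Rnr2 was 1.47 to 1.66 in infarct and 1.48 to 1.88 in sham libraries, while the summed level of both spanned 126 to 317 FPKM in infarct and 128 to 870 FPKM in sham libraries. These values are what remained after rRNA depletion, 0.567% to 1.34% of the summed FPKM of the 13 mRNAs in infarct and 0.564% to 4.02% in sham libraries.

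In the authors' deposited table both rRNA genes are called lower in infarct, with q = 0.00178 for each, in a test that calls 1.66% of the 14922 genes it tested. limma did not call them, and why the tests differ was not tested. The change of mt-Rnr1 was -0.90 with an SE of 0.67 and an interval from -2.49 to 0.70, and that of mt-Rnr2 was -0.80 with an SE of 0.69, each with an adjusted p of 1.00. Without sham library 2 the changes were -0.22 for mt-Rnr1 and -0.13 for mt-Rnr2, and without sham library 1 they were -1.57 and -1.55.

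Several other transcripts also had their highest value in sham library 2. Gm42418, a non-coding gene model on chromosome 17, was at 6082, 4613 and 3666 FPKM in infarct and at 3664, 8797 and 4831 FPKM in sham libraries, and entries of the biotype rRNA summed to 26.4, 23.0 and 21.0 FPKM in infarct and to 19.9, 47.9 and 20.5 FPKM in sham libraries. In sham library 3, the second highest for mt-Rnr1 and mt-Rnr2, Gm42418 was lower than in infarct library 1 and the rRNA entries were lower than in each infarct library. Lars2, the nuclear gene of the enzyme that charges mitochondrial leucine tRNAs, was also highest in sham library 2. It was at 44.1, 35.8 and 19.6 FPKM in infarct and at 15.0, 131 and 56.0 FPKM in sham libraries. Its ratio to mt-Rnr2 was 0.370, 0.538 and 0.397 in infarct and 0.339, 0.403 and 0.389 in sham libraries. Lars2 did not pass (change -0.61 with an SE of 0.73, adjusted p = 1.00 by limma). The sequence search returned no Lars2 transcript at its thresholds, but it could not find shorter, more diverged or antisense matches. The part of rRNA depletion or of cycling cells in these values was not tested.

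**Figure D5:**
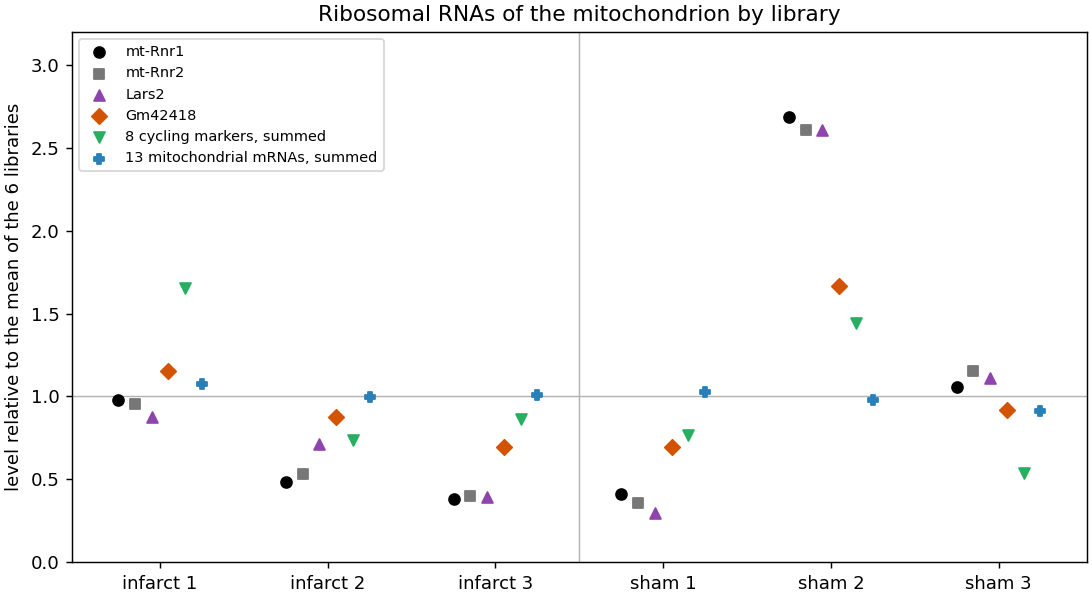
Level in each library divided by its mean over the 6 libraries, for mt-Rnr1, mt-Rnr2, Lars2, Gm42418, the summed cycling markers and the summed mitochondrial mRNAs, with infarct libraries on the left and sham libraries on the right. mt-Rnr1, mt-Rnr2 and Lars2 are highest in sham library 2 and low in infarct library 3 and sham library 1, whereas the summed mRNAs stay close to 1 in all 6 libraries.

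The 22 tRNA genes, 14 on the plus strand and 8 on the minus strand, were listed at 0 in all 6 libraries. Their annotated lengths are 59 bases for mt-Ts2 to 75 bases for mt-Tl1. Of all 1022 genes in the table with a longest transcript of up to 75 bases, 0 were above 0 in any library, and likewise 0 of 1412 genes of 76 to 100 bases. Of genes of 201 to 300 bases, 9.28% were above 0. The zeros of the tRNA genes are thus shared by every gene of their length in the table and give no measure of the tRNAs. None of the 22 reached the filter of 1 FPKM in 3 libraries, so none was tested.

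Nuclear genes that serve the mitochondrial genome were read from the same limma fit, as 6 lists with 178 tested genes in all. limma called 0 of them over all genes and found 4 at an unadjusted p under 0.05, which is 4 of 178 beside 3.59% of all genes. Their median change was 0.05, beside 0.015 for all genes, and 120 of 178 (67.4%) were positive, beside 55.3% of all genes. With each of the 3 other scalings 117 of 178 were positive, and without infarct library 1 it was 89 of 178, with a median of -0.0014. The groups did not overlap for 14 of 178, against 7.82% of all genes.

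For the list of mitochondrial transcription 5 of 10 tested genes were positive, with a median change of 0.020. Tfb2m, a factor of transcription initiation, was at 11.8 ± 1.72 FPKM in infarct and 10.9 ± 1.86 FPKM in sham libraries. For replication and maintenance of the mitochondrial DNA 16 of 19 tested genes were positive, beside 55.3% of all genes, with a median of 0.10. Without infarct library 1 it was 13 of 19, with a median of 0.091, and without sham library 1 the median was 0.055. Rnaseh1, which encodes an enzyme that removes RNA from RNA-DNA hybrids, was at 5.76, 6.42 and 5.70 FPKM in infarct and at 4.77, 5.12 and 5.59 FPKM in sham libraries, so its groups did not overlap. Twnk, the gene of the replicative helicase, was at 3.20 ± 0.770 FPKM in infarct and 2.53 ± 0.413 FPKM in sham libraries. limma called none of the genes in either list.

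For RNA processing and decay 21 of 33 tested genes were positive, beside 55.3% of all genes, with a median of 0.06. Without infarct library 1 it was 13 of 33, with a median of -0.031. Slirp, whose product binds and stabilises mitochondrial mRNAs, was at 12.8, 16.2 and 15.1 FPKM in infarct and at 22.9, 27.1 and 13.5 FPKM in sham libraries. Its change was -0.45 with an interval from -1.02 to 0.13, and sham library 3 lay within the infarct range. For translation factors and tRNA synthetases 21 of 32 tested genes were positive, with a median of 0.07. Wars2, the tryptophan synthetase gene, was at 2.17, 1.58 and 2.51 FPKM in infarct and at 2.78, 3.18 and 2.85 FPKM in sham libraries, without overlap and with an adjusted p of 1.00 by limma.

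For the mitochondrial ribosomal proteins, which assemble with mt-Rnr1 and mt-Rnr2, 53 of 77 tested genes were positive, with a median of 0.05, and without infarct library 1 it was 36 of 77, with a median of -0.015. Mrps12, of the small subunit, was at 34.5, 39.6 and 33.5 FPKM in infarct and at 29.1, 25.5 and 28.8 FPKM in sham libraries, without overlap. Its change was 0.35 ± 0.10 (SE), and its adjusted p of 0.935 by limma was the lowest of the 178 genes. Mrpl52, of the large subunit, was at 178 ± 14.2 FPKM in infarct and 152 ± 6.81 FPKM in sham libraries. Of 9 tested regulators of mitochondrial biogenesis 4 were positive, with a median of -0.0011, and the transcription factor gene Nrf1 was at 10.4 ± 1.39 FPKM in infarct and 9.80 ± 2.46 FPKM in sham libraries.

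Nuclear subunits of the complexes that also hold mitochondrially coded ones were likewise read from this fit. limma called 0 of 74, beside 0.0236% of all genes, and found 0 of 74 at an unadjusted p under 0.05, beside 3.59%. The groups did not overlap for 6 of 74, beside 7.82% of all genes. The median change was 0.05 for 36 tested subunits of complex I, 0.10 for 9 of complex III, 0.05 for 14 of complex IV and 0.09 for 15 of complex V, beside 0.015 for all genes. Of these, 27, 6, 10 and 15 were positive, in all 58 of 74 (78.4%), beside 55.3% of all genes. Without infarct library 1 it was 55 of 74, with a median of 0.031, and 12 of 15 for complex V. The nuclear subunits of complex IV summed to 2157 to 2328 FPKM in infarct and 2110 to 2240 FPKM in sham libraries, below mt-Co1 alone in every library.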

How the data were processed

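Total RNA of 6 samples was sequenced as 150-base read pairs. The build GRCm38 and the tools Cuffdiff, Cufflinks, HISAT2, Trimmomatic 0.36, StringTie and SAMtools appear, without roles, per the submitters' processing notes. The annotation version and the treatment of reads with several matches are not given in the sources used here. Per library, the authors deposited FPKM values, and per group, per the file headers, mean FPKM, SDs, a test score, p-values and q-values. Since the numbers of the infarct columns are not those of the infarct samples, these columns were tied to the group alone and are numbered here as in the table.

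No member had the status HIDATA or FAIL (14 and 5 genes, left out). Entries of 1 symbol were summed. Groups were compared with limma 3.58.1 (R 4.3.3) on log2(FPKM + 1), with trend, for genes that reached 1 FPKM in 3 or more libraries, two-sided, threshold 0.05 after Benjamini-Hochberg adjustment over all tested genes, checked on simulated data. Intervals are 95%. The alternatives were other pseudocounts, filters, scalings and biotypes, no trend and leaving out each library. Depth was estimated from genes with 1 transcript of 2000 to 12000 bases, assuming inserts of 275 bases. With it, 97.7% to 98.8% of low values came within 0.1 of whole fragments, a share that includes the values that set the scale. The depths cover counting error only. Copies were searched, on the sense strand, in GENCODE M21 transcripts with BLAST+ 2.17.0, which held 99.6% of the gene identifiers. A further copy, of part of mt-Atp6, was found, and its levels are not reported here.

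Members and lists were chosen with earlier results of these data known. Each mRNA and rRNA member is named, and examples from each nuclear list are taken from its 4 genes with the smallest unadjusted p and its 2 most abundant. The lists of nuclear complex subunits were added after the table was seen. Gm42418 and the rRNA entries were chosen after their values were seen.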

Additional observations from a re-analysis of the deposited data

How the results depend on the processing

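limma called 0 genes of the mitochondrial genome and 0 of the nuclear genes that serve it under all alternatives run, including those that leave out 1 library. Over all genes it called 3, but 1 with no filter on low values and 0 among protein-coding genes only, where fewer genes were tested. Leaving out 1 library gave 1 to 14 calls, with 1 without infarct library 1, infarct library 2 or sham library 2 and 14 without sham library 1, and the cause was not tested. The summed mRNA level in infarct over sham, 1.05, was 1.05 with median scaling and with rescaling to nuclear protein-coding genes, 1.02 without mt-Atp8 (chosen after seeing the data) and 1.02 to 1.09 when 1 library was left out. Single changes turned in sign without being called. With quantile normalization they were -0.0495 for mt-Nd1, -0.0603 for mt-Co1, -0.192 for mt-Atp8, -0.0433 for mt-Nd4, -0.0731 for mt-Nd6 and -0.068 for mt-Cytb. With median scaling mt-Nd4 was at -0.00355 and mt-Nd6 at -0.00494, and with rescaling to nuclear protein-coding genes at -0.00651 and -0.0079. With 1 library left out, the changes ran from -0.0538 to 0.121 for mt-Nd1, -0.0244 to 0.118 for mt-Nd2, -0.257 to 0.161 for mt-Co2, -0.228 to 0.106 for mt-Atp6, -0.232 to 0.0998 for mt-Co3, 0.177 to 0.742 for mt-Nd3, 0.336 to 0.74 for mt-Nd4l, -0.0433 to 0.0458 for mt-Nd4 and -0.0584 to 0.0586 for mt-Nd6. No paired analysis was possible because the infarct columns carry other numbers than the infarct samples. With 3 libraries a group, the intervals of the rRNA and low genes leave sizeable changes undetectable. At the estimated depth mt-Co3 and mt-Atp6 rest on 46.5 to 89.7 fragments per library, mt-Co1 on at least 102901. Fragments were not estimated for the short genes mt-Nd3 (348 bases), mt-Nd4l (297 bases), mt-Nd6 and mt-Atp8. The levels of mt-Nd3 and mt-Nd4l may rest on fewer fragments than those of mt-Co3 and mt-Atp6.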
